A study of Homo sapiens with 9 samples.

Results

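The genes described here are 31 members of the cholesterol and fatty acid synthesis pathway, matched by symbol to a list of genes under the sterol regulatory element-binding proteins (SREBPs). The list uses no measured value as a criterion, but it was drawn up with earlier results of these data known. All 31 were found among the 58735 genes of the count table, and all 31 were among the 18195 genes with enough reads to be tested. The series concerns the palmitoylation of p65, the NF-kB subunit encoded by RELA. Its cells were HEK293A, a flat-growing form of the human embryonic kidney line HEK293, and every group carried the p65 knockout. One group was transfected with empty vector, one with a p65 WT plasmid and one with a p65 2CS plasmid. After 24 h, all 3 groups received TNFα at 20 ng/mL for 2 h, so no group was free of TNFα. There were 3 libraries per group: replicates 1 to 3 had vector, 4 to 6 p65 WT and 7 to 9 p65 2CS. The labels give neither the meaning of 2CS nor the share of cells that took up a plasmid. Nor do they state whether the knockout line is 1 clone or whether the libraries are separate cultures. The p-values therefore measure the spread between these samples only, which may be technical.

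SREBPs are transcription factors made as membrane proteins of the endoplasmic reticulum. When sterols are scarce, SCAP escorts them to the Golgi, where proteases free the active part. When sterols are plentiful, INSIG proteins hold SCAP and its cargo back. The SREBF2 product acts mainly on cholesterol synthesis and the SREBF1 product mainly on fatty acid synthesis, with targets in common. INSIG1 and HMGCS1 are classical SREBP targets themselves. FASN makes palmitate, the fatty acid most often attached to proteins in palmitoylation.

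Library totals were 15989601 to 25068515 counts. RELA, the check of the labels, was at 65.8 to 68.9 CPM (the usual read share per library, after scaling) in vector cells, 8024 to 9906 with p65 WT and 23997 to 26728 under p65 2CS. It was 2.84-fold higher with p65 2CS than with p65 WT (log2 fold 1.503, edgeR adjusted p = 1.4e-30), and plasmid transcripts cannot be told from those of the locus. In every comparison between the p65 forms below, the form and this RELA level change together and cannot be told apart. The mitochondrial share of counts was 4.34 to 5.05%. Of 9 listed renal and epithelial genes of HEK293 cells 8 were tested, and their summed level was 1540 to 1560 CPM in vector cells, 1500 to 1550 with p65 WT and 1310 to 1350 under p65 2CS. Of these 8, 2 were higher (25%) and 1 lower (12.5%) with p65 WT against vector, beside 16.4% and 12.5% of all tested genes. With p65 2CS against vector 1 was higher (12.5%) and 4 lower (50%), beside 12.1% and 11.4%. With p65 2CS against p65 WT 0 were higher and 5 lower (62.5%), beside 13.4% and 17.9%. The low-count genes PAX8 (0.138, 4.28 and 0.656 CPM in the order vector, p65 WT, p65 2CS) and CDH1 (0.543, 1.90 and 0.774 CPM) were highest with p65 WT. Most of the sum came from KRT8 (940, 921 and 827 CPM), VIM (392, 399.5 and 313 CPM) and KRT18 (202.5, 191 and 179 CPM). All of these were called lower with p65 2CS than in either other group. The 4 neural genes summed to 880 to 917, 831 to 854 and 809 to 838 CPM. Nearly all of this sum was NEFL (898, 840 and 823 CPM), which fell against vector with p65 WT (log2 fold -0.095, edgeR adjusted p = 0.00217) and p65 2CS (-0.13, 0.000109). The low-count genes NEFM (0.253, 1.75 and 0.400 CPM) and INA (0.252, 0.979 and 0.239 CPM) were higher with p65 WT than in either other group. Fibroblast and endothelial genes summed to 78.6 to 86.4, 119 to 120 and 79.4 to 83.4 CPM. VWF (7.21, 25.1 and 9.38 CPM) and CDH5 (0.0977, 10.5 and 2.38 CPM) were higher in both p65 groups. COL1A1 (49.0, 56.3 and 49.2 CPM) rose with p65 WT only, and COL3A1 (26.4, 27.25 and 20.6 CPM) fell with p65 2CS against vector (log2 fold -0.35, edgeR adjusted p = 0.000308). Markers of cells specialised in lipid synthesis were near 0. The hepatocyte genes summed to at most 8.73 CPM in any library, nearly all from CYP2E1, and the adipocyte genes to at most 3.02 CPM. ADIPOQ was at 0 in all 9 libraries, and the adipocyte gene PLIN1 (0.970, 2.12 and 2.36 CPM) was higher in both p65 groups. Leukocyte genes summed to at most 0.316 CPM. The part of these shifts in the results on lipid synthesis was not tested. In bulk RNA, fewer cells that express a gene and less RNA per cell cannot be told apart.

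Per unit of gene length, FASN, SCD and ACLY of the fatty acid genes stood highest among the members. In vector cells FASN was at 472 ± 5.71 TPM (a read share corrected for gene length, SD, n = 3), SCD at 362 ± 4.78 TPM and ACLY at 294 ± 6.43 TPM. HMGCS1 followed at 170 ± 2.94 TPM and SREBF2 at 159 ± 2.64 TPM. The lowest level was that of HSD17B7 at 9.39 ± 1.19 TPM, below INSIG2 at 11.4 ± 1.02, CYP51A1 at 11.7 ± 1.86 and MVK at 11.9 ± 0.65 TPM. The last 3 differed by less than their spread. The CYP51A1 level is uncertain, since 79.4% of its exon bases are shared with AC000120.2 on the same strand, which had 0 CPM. How reads on shared bases were counted is not given. The HSD17B7 level is uncertain too, since its copy HSD17B7P2 had reads at 6.66 CPM. How reads that match both were counted is likewise not given. The ratio of the highest to the lowest level was 50.2, and it carries the same limit. In these cells SREBF2 was thus present at a higher level per length than SREBF1, which had 54.9 ± 1.59 TPM, and INSIG1 (79.3 ± 0.797 TPM) at a higher one than INSIG2.

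Promoter sequence was read for the 27 members that matched RefSeq's promoter table (GRCh38.p14), which covers 250 bases before to 50 bases after each start and holds 37 promoters of these members. A gene with several promoters counted once. The CCAAT box, bound by NF-Y, a partner of SREBPs at many lipid gene promoters, was found on either strand in 20 of 27 members (74.1%), against 42.7% of the 11860 tested genes in the table and 34.6% of all its promoters. GGGCGG, the box bound by Sp1, was in 26 of 27 (96.3%), against 75.5% and 45%. The sterol regulatory element in the form TCACNCCAC was in 1 of 27 (3.7%), the SREBF2 promoter, against 1.44% and 1.13%. CANNTG, the E-box that SREBPs can also bind, was in 66.7% of members, 67.6% of tested genes and 68.7% of all promoters. CACGTG, a special case of CANNTG, was in 14.8%, 12.3% and 7.26%. The kappa-B consensus, the NF-kB recognition motif, was in 9 of 27 members (33.3%) over the whole window, against 17.5% and 11.3%. In the 250 bases before the start it was in 5 (18.5%), against 15.9% and 9.96%. The 9 were ACACA, ACLY, CYP51A1, FDPS, HMGCS1, INSIG2, MVK, SREBF1 and SREBF2. Of these 9, only SREBF1 was called higher with p65 WT against vector, and INSIG2 was called lower. LSS, SC5D, SCAP and FADS2, the other members higher with p65 WT, had no kappa-B match. Such matches describe letters only. The stretches below are those of members whose levels the results turn on, each read 5′ to 3′ along the gene's strand, with 30 bases on either side of the match, which is in capitals. ATTGG is CCAAT on the other strand. Positions are counted from the start given in RefSeq's promoter table. That start differs from the gene boundaries printed for some of these members below. SREBF2 lies at chr22:41832942-41833010 (plus strand, with the sterol regulatory element at -133 to -125 from the start), INSIG1 at chr7:155297678-155297742 (plus strand, -170 to -166), HMGCS1 at chr5:43313533-43313597 (minus strand, -155 to -151), SCD at chr10:100347017-100347081 (plus strand, -186 to -182) and MSMO1 at chr4:165327500-165327564 (plus strand, -139 to -135). The SREBF1 stretch at chr17:17837062-17837131 (minus strand) holds the kappa-B match at -115 to -106 instead.
SREBF2: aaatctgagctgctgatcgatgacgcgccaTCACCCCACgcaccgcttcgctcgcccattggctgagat
INSIG1: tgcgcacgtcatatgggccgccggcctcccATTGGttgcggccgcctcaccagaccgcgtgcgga
HMGCS1: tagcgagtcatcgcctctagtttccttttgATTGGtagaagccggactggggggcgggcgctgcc
SCD: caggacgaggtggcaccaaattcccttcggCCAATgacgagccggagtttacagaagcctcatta
MSMO1: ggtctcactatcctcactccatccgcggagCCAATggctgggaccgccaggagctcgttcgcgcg
SREBF1: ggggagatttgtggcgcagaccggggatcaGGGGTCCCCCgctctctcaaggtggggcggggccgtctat

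The comparison of p65 2CS with vector gave falls and no rises. Of the 31 members, 14 fell, 0 rose and 17 were not called at an adjusted p under 0.05 (edgeR quasi-likelihood test), where 11.4% of all tested genes fell and 12.1% rose. The median log2 fold of the members was -0.105 (range -0.402 to 0.198), beside -0.00176 over all tested genes. Among the 10525 tested genes at or above the lowest mean level of a member, 17.5% fell and 15.1% rose, with a median of -0.0102. At an unadjusted p under 0.05 the count of rises was also 0, as it was with DESeq2. The changes were small, and no called member passed 1.5-fold. Of the enzymes of sterol synthesis 8 of 18 fell, of the SREBP factors and their retention proteins 3 of 5, and of the fatty acid genes 3 of 7. With each library left out in turn, 10 to 16 members fell.

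Against vector, p65 WT gave both rises and falls, at shares near or below those of all tested genes. Here 5 members rose (LSS, SC5D, SREBF1, SCAP and FADS2), 3 fell (MSMO1, INSIG2 and ELOVL6) and 23 were not called, where 16.4% of all tested genes rose and 12.5% fell. The members' shares were 16.1% and 9.68%. Among the 10525 tested genes at or above the lowest mean level of a member, 16.6% rose and 18.9% fell. The median log2 fold of the members was -0.00157 (range -0.301 to 0.246), beside -0.0227 over all tested genes. This balance depended on the scaling of libraries: with library totals alone 4 members rose and 10 fell (PMVK, IDI1, SQLE, TM7SF2, DHCR7, ACACA and SCD in addition), and over all genes 2554 rose and 3659 fell in place of 2976 and 2268. Without p65 WT replicate 6, 1 member fell. Both comparisons with vector use the same 3 vector libraries.

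Set against p65 WT directly, p65 2CS gave 15 members lower and 2 higher (HSD17B7 and ACACA), with 14 not called, where 17.9% of all tested genes were lower and 13.4% higher. The median was -0.107 (range -0.452 to 0.365), beside 0.003 over all tested genes. Among the 10525 tested genes at or above the lowest mean level of a member, 20.6% were lower and 19.4% higher, with a median of 0.00964. With library totals from which RELA was left out, 7 of the 15 calls were lost, those of IDI1 (log2 fold -0.097), FDPS (-0.11), FDFT1 (-0.12), SQLE (-0.054), STARD4 (-0.14), FADS1 (-0.050) and FADS2 (-0.080). This left 8 members lower and 2 higher, and over all genes 2528 were lower and 3801 higher in place of 3254 and 2431. With library totals alone the counts over all genes were 2815 lower and 3115 higher, and those of members 13 and 2. Without p65 2CS replicate 8, 1 member was higher.

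**Figure D1:**
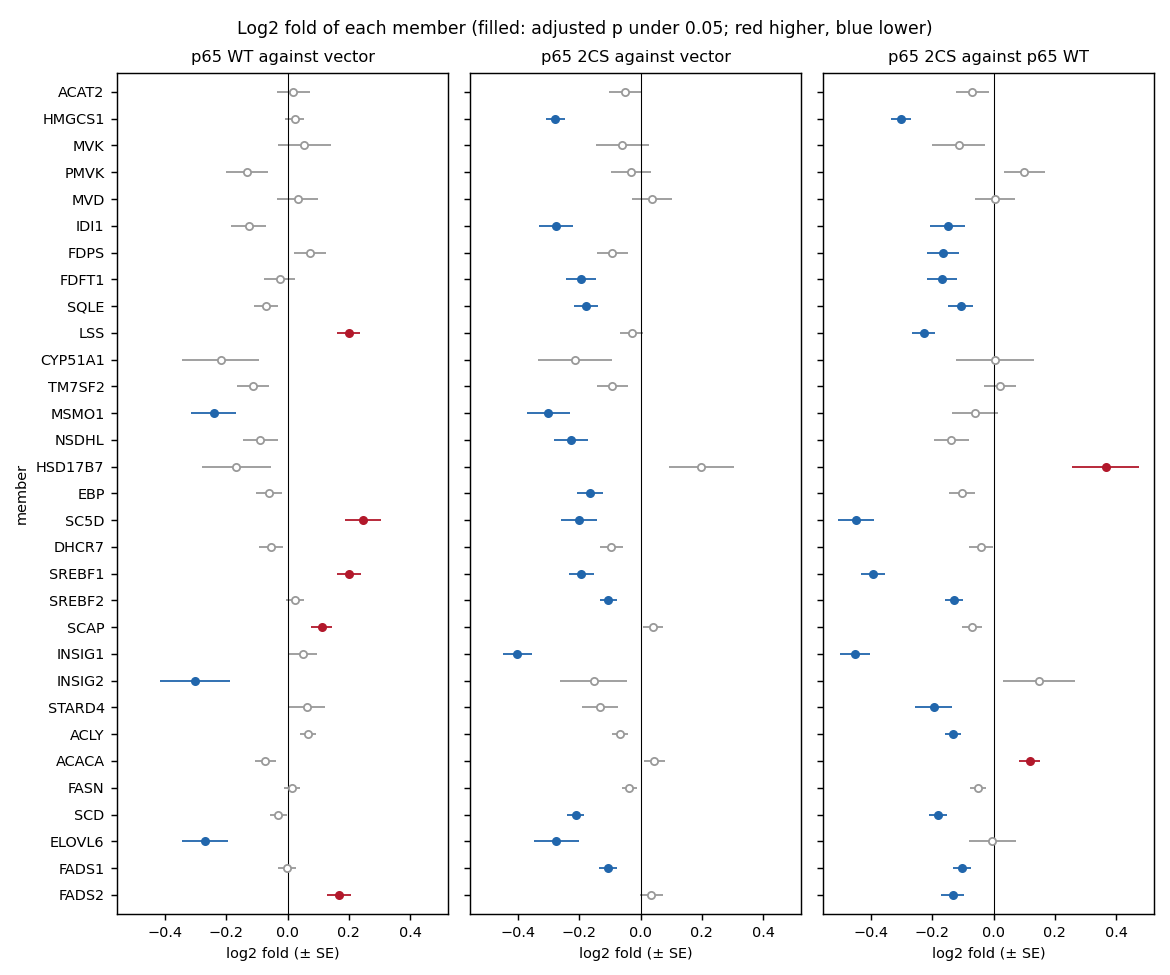
Log2 fold (x axis, ± SE) of each of the 31 members (y axis) in the 3 comparisons, from the fit of 9 libraries with 3 per group. Filled points passed an adjusted p of 0.05 (red higher, blue lower) and open grey points did not. In the middle panel 14 points are blue and 0 red, with INSIG1 the farthest left at -0.40.

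**Figure D2:**
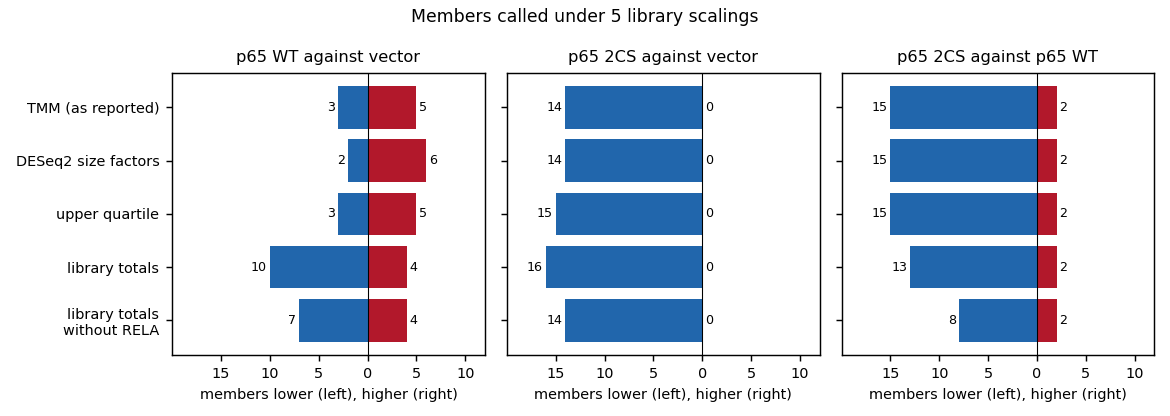
Number of members called lower and higher (x axis) under 5 ways of scaling the libraries (y axis), for the 3 comparisons. The members that fell with p65 2CS against vector number 14 to 16 under each scaling, while those that fell with p65 WT go from 2 or 3 to 7 with totals without RELA and 10 with library totals alone.

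Of the 5 SREBP factor and retention genes, INSIG1, SREBF1 and SREBF2 fell with p65 2CS against vector. They are 60% of these genes, beside 11.4% of all tested genes and 17.5% of those at or above the lowest mean level of a member. INSIG1 (chromosome 7, 155297776 to 155310235 on the plus strand of GRCh38), which holds the SCAP complex in the endoplasmic reticulum and whose promoter stretch is shown above, was at 76.6, 77.6 and 78.8 CPM in vector cells and at 76.2, 87.4 and 77.7 with p65 WT. With p65 2CS it was at 58.1, 58.9 and 59.2 CPM. The 3 p65 2CS libraries lay below all others, and the vector and p65 WT ranges overlapped. INSIG1 fell by 24.3% with p65 2CS against vector (log2 fold -0.40 ± 0.047, SE, edgeR adjusted p = 1.27e-08), the largest fall of any member there. Against p65 WT its log2 fold was -0.45 ± 0.048 (edgeR adjusted p = 3.75e-10), and p65 WT against vector gave 0.049 ± 0.047 (edgeR adjusted p = 0.475).

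SREBF1 (chromosome 17, 17810399 to 17837002, minus strand) differed in all 3 comparisons. Its libraries were at 121, 118 and 116 CPM in vector cells, 129, 135 and 144 with p65 WT, and 104, 98.9 and 108 under p65 2CS. The 3 ranges did not overlap, with p65 WT highest and p65 2CS lowest. The log2 folds were 0.20 ± 0.040 for p65 WT against vector (edgeR adjusted p = 9.07e-05), -0.19 ± 0.040 for p65 2CS against vector (0.000296) and -0.39 ± 0.040 between the forms (1.34e-10). These counts cannot separate the isoforms that SREBF1 encodes from its alternative starts. SREBF1 shares 556 exon bases (6.92% of its exon length) with RAI1 on the opposite strand, whose own log2 folds were -0.14, -0.13 and 0.0066. SREBF2 (chromosome 22, 41833079 to 41907308, plus strand) was at 319, 319 and 331 CPM in vector cells, 327, 328 and 330.0 with p65 WT, and 292, 294 and 314 under p65 2CS. Its p65 2CS libraries lay below the other 6, with a log2 fold of -0.10 ± 0.029 against vector (edgeR adjusted p = 0.00653) and -0.13 ± 0.029 against p65 WT (0.0005). The fall against vector was not called without vector replicate 3 (-0.088) or p65 2CS replicate 7 (-0.086).

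SCAP, the escort of the SREBPs, rose slightly with p65 WT, from 157, 151 and 148 CPM to 167, 165 and 160 CPM (log2 fold 0.11 ± 0.034, edgeR adjusted p = 0.0102). The ranges did not overlap, but the rise was not called without vector replicate 3 (0.091) or with library totals alone (0.067). With p65 2CS the values were 155, 154 and 159.8 CPM, overlapping with vector and just below p65 WT, and neither comparison was called (0.041 and -0.069). INSIG2, the second retention protein, was at 11.5, 13.3 and 11.4 CPM in vector cells, 11.2, 8.54 and 9.75 with p65 WT and 9.64, 11.1 and 11.8 under p65 2CS. It fell with p65 WT (-0.30 ± 0.12, edgeR adjusted p = 0.0446), just inside the threshold. That call was lost in 7 of 17 alternatives, among them those without vector replicate 2 (-0.23), p65 WT replicate 5 (-0.21) and p65 WT replicate 6 (-0.30). For p65 2CS its log2 folds were -0.15 against vector and 0.15 against p65 WT, neither called.

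**Figure D3:**
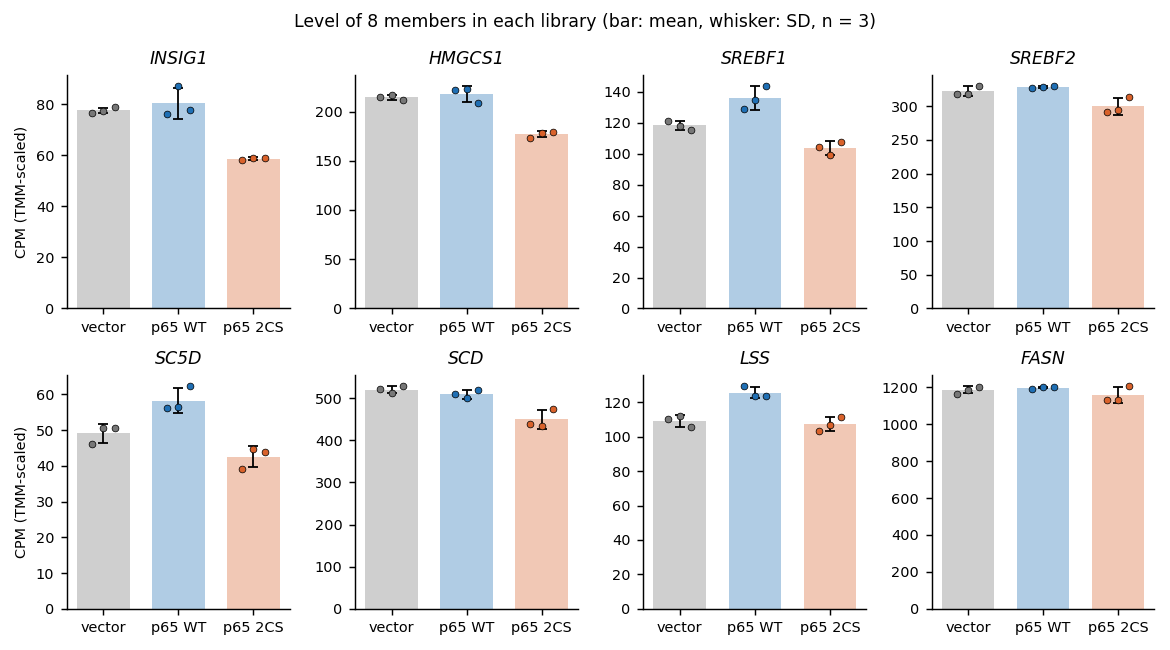
CPM per library (y axis, from 0) of INSIG1, HMGCS1, SREBF1, SREBF2, SC5D, SCD, LSS and FASN in the 3 groups; bars are means, whiskers SD and points the 3 libraries. The p65 2CS points of INSIG1, at 58.1 to 59.2 CPM, lie below all other libraries, while those of FASN, at 1130 to 1207 CPM, overlap with them.

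In the mevalonate pathway, which leads from acetyl-CoA to farnesyl diphosphate, 7 members were measured and 2 fell with p65 2CS against vector. These 2 are 28.6%, beside 11.4% of all tested genes and 17.5% of those at or above the lowest mean level of a member. HMGCS1 (chromosome 5, 43289395 to 43313512, minus strand), which condenses acetyl-CoA with acetoacetyl-CoA, was at 215, 217 and 211 CPM in vector cells and 222, 223 and 208 with p65 WT. With p65 2CS it was at 173, 179 and 179 CPM, below all 6 other libraries. Its log2 fold was -0.28 ± 0.031 against vector (edgeR adjusted p = 5.92e-09), -0.30 ± 0.032 against p65 WT (3.68e-10) and 0.023 ± 0.032 for p65 WT against vector (0.635). IDI1, which isomerises isopentenyl diphosphate, was at 57.0, 65.3 and 60.9 CPM in vector cells, 51.9, 59.4 and 56.6 with p65 WT and 46.7, 52.0 and 52.3 under p65 2CS. It fell with p65 2CS against vector (-0.28 ± 0.056, edgeR adjusted p = 0.000235), where the ranges did not overlap. For p65 WT against vector IDI1 gave -0.13 (0.0928), which was called without vector replicate 1 (-0.18) or p65 WT replicate 5 (-0.17). Between the forms the ranges did overlap, and the call at -0.15 (0.0442) was lost in 6 of 17 alternatives, including those without p65 WT replicate 5 (-0.10), p65 WT replicate 6 (-0.14) or p65 2CS replicate 7 (-0.10).

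FDPS, which makes farnesyl diphosphate, was lower with p65 2CS than with p65 WT (52.1, 52.5 and 48.2 against 59.8, 55.4 and 56.2 CPM, log2 fold -0.16 ± 0.052, edgeR adjusted p = 0.0126). Vector libraries lay between, at 53.3 to 54.9 CPM. The call between the forms was lost without p65 WT replicate 4 (-0.13) or p65 2CS replicate 9 (-0.12), and 18.6% of FDPS exon bases are shared with RUSC1-AS1 on the opposite strand. RUSC1-AS1 was itself lower with p65 2CS (8.08 CPM) than with p65 WT (10.75 CPM), at a log2 fold of -0.41 (edgeR adjusted p = 0.00945). Its part in the FDPS difference was not tested. The remaining 4 genes of the pathway were not called in any comparison under TMM scaling. They were ACAT2 (thiolase), MVK and PMVK (the kinases) and MVD (the decarboxylase), with log2 folds between -0.132 and 0.10. PMVK was called lower with p65 WT against vector with library totals alone (-0.18). ACAT2 shares 397 exon bases with TCP1, a gene at 327 CPM on the opposite strand, and MVK shares 4.72% of its exon length with MMAB.

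Among the 11 genes from squalene to cholesterol, 6 fell with p65 2CS against vector: FDFT1, SQLE, MSMO1, NSDHL, EBP and SC5D. These 6 are 54.5%, beside 11.4% of all tested genes and 17.5% of those at or above the lowest mean level of a member. SC5D (chromosome 11, 121292453 to 121308694, plus strand), the lathosterol oxidase, showed the same order of groups as SREBF1. It was at 46.1, 50.7 and 50.7 CPM in vector cells, 56.1, 56.4 and 62.3 with p65 WT and 39.2, 44.8 and 43.8 under p65 2CS, with no overlap between groups. It rose with p65 WT (0.25 ± 0.058, edgeR adjusted p = 0.000866) and fell with p65 2CS against vector (-0.20 ± 0.058, 0.00898). Between the forms it differed by -0.45 ± 0.058 (5.17e-08). The fall against vector was not called without vector replicate 2 (-0.18) or p65 2CS replicate 7 (-0.15).

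LSS, which closes the sterol rings, rose with p65 WT from 110.2, 112 and 106 CPM to 130, 124 and 124 CPM (log2 fold 0.20 ± 0.038, edgeR adjusted p = 5.28e-05). With p65 2CS it was at 104, 107 and 111 CPM, overlapping with vector (-0.028 ± 0.038, edgeR adjusted p = 0.655) and below p65 WT (-0.23 ± 0.038, 6.13e-06). The p65 WT libraries lay above the other 6. SQLE, the epoxidase ahead of it, was at 101, 104 and 97.2 CPM in vector cells, 94.9, 97.2 and 95.6 with p65 WT and 90.5, 86.0 and 91.0 under p65 2CS. It fell with p65 2CS against vector (-0.18 ± 0.039, edgeR adjusted p = 0.00068). The difference from p65 WT (-0.11 ± 0.040, 0.0377) was lost in 7 of 17 alternatives, with values of -0.12 to -0.054 over all of them. Leaving out p65 WT replicate 4 (-0.12), 5 (-0.097) or 6 (-0.11), and likewise p65 2CS replicate 8 (-0.078), was enough to lose it. FDFT1, squalene synthase, was at 73.8, 72.7 and 65.4 CPM in vector cells, 71.8, 68.1 and 68.3 with p65 WT and 60.9, 64.4 and 59.6 under p65 2CS. Its p65 2CS libraries lay below the other 6, with -0.19 ± 0.049 against vector (edgeR adjusted p = 0.0025) and -0.17 ± 0.050 against p65 WT (0.00751). The FDFT1 call against p65 WT was lost with library totals without RELA (-0.12).

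MSMO1 and NSDHL, which remove methyl groups from sterols, fell with p65 2CS against vector. MSMO1 was at 33.4, 30.1 and 28.6 CPM in vector cells, 27.0, 26.2 and 24.8 with p65 WT and 23.0, 25.0 and 26.7 under p65 2CS. Both p65 groups lay below vector and overlapped with each other: the log2 folds were -0.24 ± 0.073 (edgeR adjusted p = 0.00987) and -0.30 ± 0.071 (0.00146) against vector and -0.059 between the forms. The p65 WT fall was not called without vector replicate 1 (-0.18) or p65 WT replicate 6 (-0.21). NSDHL was at 46.1, 46.9 and 47.6 CPM in vector cells, 44.0, 43.5 and 44.6 with p65 WT and 42.9, 37.5 and 40.2 under p65 2CS, a fall of -0.23 ± 0.056 against vector (edgeR adjusted p = 0.00242). Without p65 2CS replicate 7, NSDHL was also called lower than with p65 WT (-0.18). EBP, the sterol isomerase, fell by 10.8% with p65 2CS against vector, to 71.6 to 75.5 CPM from 80.7 to 85.1 CPM (-0.16 ± 0.042, edgeR adjusted p = 0.00292). HSD17B7, the ketosteroid reductase of the pathway, went the other way, at 13.8, 11.4 and 10.98 CPM in vector cells, 10.2, 11.96 and 9.999 with p65 WT and 11.97, 14.96 and 14.3 under p65 2CS. It was higher with p65 2CS than with p65 WT (0.37 ± 0.11, edgeR adjusted p = 0.00905), but not without p65 2CS replicate 8 (0.29). This value is uncertain, since the copy HSD17B7P2 had reads at 6.66 CPM and a log2 fold of 0.30 in that comparison (edgeR adjusted p = 0.116). CYP51A1 and TM7SF2 (a demethylase and a sterol reductase) and DHCR7, the last reductase, were not called in any comparison under TMM scaling of the 9 libraries, at log2 folds of -0.22 to 0.02. For CYP51A1 the limit of its shared exon bases, given above, applies here too. With library totals alone TM7SF2 (-0.15) and DHCR7 (-0.098) were called lower with p65 WT against vector, TM7SF2 also with totals without RELA (-0.14). DHCR7 was called lower with p65 2CS against vector with library totals alone (-0.11), in the fit of those 2 groups (-0.093), and without vector replicate 1 (-0.12) or p65 2CS replicate 9 (-0.13). STARD4, a carrier of cholesterol within cells, was lower with p65 2CS (40.1, 43.7 and 43.0 CPM) than with p65 WT (46.0, 54.0 and 45.5 CPM), at -0.19 ± 0.060 (edgeR adjusted p = 0.0115). The STARD4 call was lost without p65 WT replicate 5 (-0.11) or p65 2CS replicate 7 (-0.16). Vector cells had 45.8 to 46.9 CPM, with no call against either form.

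**Figure D4:**
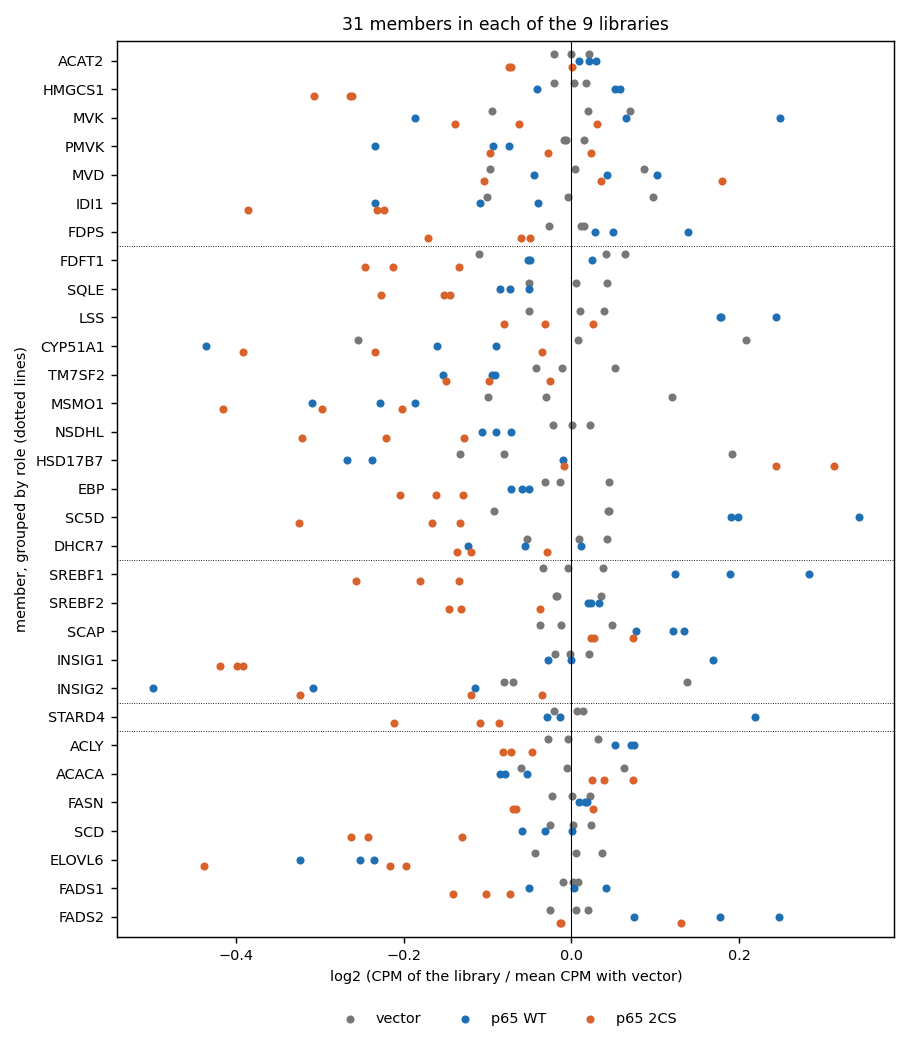
Log2 ratio of each library's CPM to the vector mean (x axis) for the 31 members (y axis, with dotted lines between roles), colored by group. In the p65 2CS libraries 26, 27 and 24 of 31 points lie left of 0, against 18, 15 and 17 with p65 WT. By the fitted log2 folds against vector, 83.9% of members were below 0 with p65 2CS and 51.6% with p65 WT. The shares were 50.4% and 54.6% over all tested genes, and 53.1% and 59% over those at or above the lowest member level.

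Of the 7 fatty acid genes, 1 rose and 1 fell with p65 WT against vector, 0 rose and 3 fell with p65 2CS, and 1 was higher and 4 lower between the forms. With p65 WT these are 14.3% each, near the 16.4% of all tested genes that rose and the 12.5% that fell. The fatty acid genes that fell with p65 2CS against vector are 42.9%, against 11.4% of all tested genes, and those lower between the forms 57.1%, against 17.9%. Among tested genes at or above the lowest mean level of a member, the shares lower were 17.5% and 20.6%. FASN (chromosome 17, 82078333 to 82098332, minus strand), the palmitate synthase, was at 1166, 1186 and 1204 CPM in vector cells, 1193, 1201 and 1199 with p65 WT and 1132, 1130 and 1207 under p65 2CS. All 3 ranges overlapped and no comparison was called: the log2 folds were 0.015 ± 0.025 (edgeR adjusted p = 0.713), -0.036 ± 0.025 (0.319) and -0.051 ± 0.025 (0.118). Without p65 2CS replicate 9, the highest of its group, FASN was called lower with p65 2CS against vector (-0.068) and against p65 WT (-0.079). SCD (chromosome 10, 100347124 to 100364834, plus strand), the desaturase that makes oleate from stearate, was at 521, 511 and 529 CPM in vector cells, 509, 499.5 and 521 with p65 WT and 439.7, 434 and 475 under p65 2CS. The p65 2CS libraries lay below the other 6, at -0.21 ± 0.029 against vector (edgeR adjusted p = 2.83e-07) and -0.18 ± 0.029 against p65 WT (2.62e-06).

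ELOVL6, which lengthens palmitate to stearate, fell against vector with both forms. It was at 26.6, 28.1 and 27.5 CPM in vector cells, 23.0, 21.9 and 23.3 with p65 WT and 20.2, 23.9 and 23.6 under p65 2CS, and the vector libraries lay above the other 6. The log2 folds were -0.27 ± 0.075 (edgeR adjusted p = 0.00459) and -0.27 ± 0.072 (0.00422), with -0.0039 between the forms, and the second was not called without p65 2CS replicate 7 (-0.21). FADS2, the delta-6 desaturase, rose with p65 WT (159, 161 and 156 to 167, 179 and 188 CPM, 0.17 ± 0.038, edgeR adjusted p = 0.000642). With p65 2CS it was at 157, 157 and 174 CPM, which overlapped with both other groups. The difference between the forms (-0.13 ± 0.038, 0.00619) was lost without p65 WT replicate 6 (-0.091) or p65 2CS replicate 8 (-0.11). FADS1, its neighbour and the delta-5 desaturase, shares 490 exon bases with FADS2 on the opposite strand. It fell with p65 2CS, to 232 to 243 CPM from 254 to 258 CPM (-0.105 ± 0.030, edgeR adjusted p = 0.00732), and was lower than with p65 WT by -0.10 ± 0.030 (0.00642). The first call was lost without p65 2CS replicate 7 (-0.089) and the second without p65 WT replicate 6 (-0.081) or with library totals without RELA (-0.050).

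Upstream of FASN, the genes for acetyl-CoA and malonyl-CoA supply differed in opposite directions between the forms. ACLY, which cleaves citrate to acetyl-CoA, was at 404, 421 and 411 CPM in vector cells, 427, 433 and 434 with p65 WT and 392, 389.7 and 399 under p65 2CS. Between the forms the log2 fold was -0.13 ± 0.026 (edgeR adjusted p = 8.64e-05). Against vector ACLY gave 0.066 (edgeR adjusted p = 0.0535) and -0.067 (0.0573), just short of the threshold. The first was called without vector replicate 2 (0.081) and with DESeq2 (0.076), and the second without vector replicate 1 (-0.082) or p65 WT replicate 6 (-0.067) and with library totals alone (-0.082). ACACA, which makes malonyl-CoA, was at 152, 145 and 139.7 CPM in vector cells, 137, 138 and 140.4 with p65 WT and 153, 149.6 and 148 under p65 2CS. It was higher with p65 2CS than with p65 WT (0.12 ± 0.035, edgeR adjusted p = 0.00782), and its ranges overlapped with vector in both cases. Without vector replicate 3, ACACA was called lower with p65 WT against vector (-0.10).

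Summed over all 31 members, the level was 4583 to 4616 CPM in vector cells, 4620 to 4693 with p65 WT and 4225 to 4430 under p65 2CS. The enzymes of sterol synthesis summed to 1153 to 1180, 1157 to 1175 and 1040 to 1065 CPM, and the fatty acid genes to 2686 to 2721, 2704 to 2769 and 2522 to 2670 CPM. In each of these sums the p65 2CS libraries lay below the other 6. A measure free of library scaling is the mean log2 CPM of the members minus the median of all tested genes in the same library. It was 2.20 ± 0.019 in vector cells, 2.14 ± 0.023 with p65 WT and 2.06 ± 0.026 with p65 2CS (SD, n = 3), with no overlap between the groups. From vector to p65 WT the members' mean went from 6.279 to 6.259, with ranges that overlapped, and the median of all tested genes from 4.08 to 4.116. With p65 2CS these were 6.157 and 4.1. The lower value with p65 WT thus does not show the members falling more than other genes. Their median log2 fold there was -0.00157, beside -0.0227 over all tested genes. The mean log2 CPM of sterol enzymes minus that of fatty acid genes was -2.24 ± 0.022, -2.26 ± 0.030 and -2.28 ± 0.037, with ranges that overlapped. The groups could not be told apart on this difference between the branches.

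**Figure D5:**
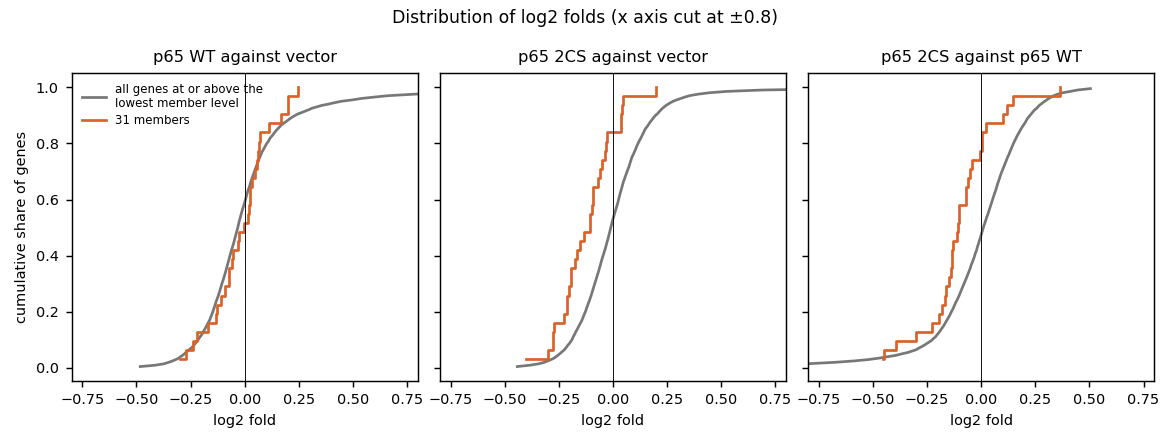
Cumulative share of genes (y axis) by log2 fold (x axis, shown from -0.8 to 0.8) for the 31 members (orange) and the 10525 tested genes at or above the lowest member level (grey), in the 3 comparisons. With p65 2CS the members' curve lies left of the grey one, with medians of -0.105 and -0.0102 against vector.

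Beyond the synthesis genes, 52 other genes of sterol and fatty acid handling were listed, of which 51 were tested. Of these, 10 rose and 9 fell with p65 WT against vector, 7 rose and 11 fell with p65 2CS against vector, and 9 were higher and 15 lower with p65 2CS against p65 WT. The shares were 19.6% and 17.6% with p65 WT, beside 16.4% and 12.5% of all tested genes, and 13.7% and 21.6% with p65 2CS, beside 12.1% and 11.4%. Between the forms they were 17.6% higher and 29.4% lower, beside 13.4% and 17.9%. Several of these shares lie near those of all tested genes. The medians were -0.0306, -0.0147 and -0.0107. The largest change was in ABCG1, a sterol exporter, which was at 10.3, 11.6 and 11.8 CPM in vector cells, 65, 59.8 and 73.3 with p65 WT and 19.4, 21.3 and 17.8 under p65 2CS. The 3 groups did not overlap, and the log2 folds were 2.55 ± 0.080 (edgeR adjusted p = 2.83e-27), 0.80 ± 0.090 (5.27e-09) and -1.75 ± 0.073 between the forms (1.01e-22). Of the 13 tested genes of sterol storage, traffic and efflux, 3 rose and 1 fell with p65 WT against vector, 2 rose and 2 fell with p65 2CS, and 2 were higher and 5 lower between the forms. Their shares higher were 23.1%, 15.4% and 15.4%, beside 16.4%, 12.1% and 13.4% of all tested genes. Their shares lower were 7.69%, 15.4% and 38.5%, beside 12.5%, 11.4% and 17.9% of all tested genes. NPC2, which carries cholesterol out of lysosomes, was at 27.4 to 29.8 CPM in vector cells. It rose with p65 WT, to 36.2 to 37.8 CPM (0.39, edgeR adjusted p = 1.09e-05). With p65 2CS it was at 23.8 to 27.2 CPM, not called against vector (-0.12, edgeR adjusted p = 0.205) and lower than with p65 WT (-0.51, 6.51e-08). NR1H3, the sterol-sensing receptor LXR alpha, had 9.59 to 10.02 CPM in vector cells and rose with p65 2CS, where it had 13.6 to 14.6 CPM (0.52, edgeR adjusted p = 0.000167). CYP27A1, a sterol hydroxylase at 1.11 CPM with p65 WT and 2.18 CPM under p65 2CS, was higher by 0.96 between the forms (edgeR adjusted p = 0.00868).

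Among 9 genes of isoprenoid use the calls were 0 higher and 1 lower with p65 WT against vector, 2 and 0 with p65 2CS against vector, and 4 and 1 between the forms. Among 20 further fatty acid and glycerolipid genes they were 6 and 4, 3 and 6, and 1 and 7. Over all tested genes the shares were 16.4% and 12.5%, 12.1% and 11.4%, and 13.4% and 17.9%. The isoprenoid genes had 0% and 11.1%, 22.2% and 0%, and 44.4% and 11.1%. Their 1 of 9 lower with p65 WT (11.1%) is near the 12.5% of all tested genes. The further fatty acid genes had 30% and 20%, 15% and 30%, and 5% and 35%. ELOVL7, an elongase of long acyl chains, was at 29.02 to 32.5 CPM in vector cells, 52.9 to 59.8 with p65 WT and 45.2 to 48.6 under p65 2CS (log2 folds 0.89, 0.63 and -0.27, edgeR adjusted p = 7.29e-16, 9.95e-11 and 0.000281). ACSS2, which makes acetyl-CoA from acetate, had 26.6 to 30.1 CPM in vector cells and rose with p65 WT, where it had 39.5 to 44.97 CPM (0.53, edgeR adjusted p = 1.68e-08). With p65 2CS, ACSS2 was at 29.5 to 31.3 CPM and was not called against vector (0.077).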

How the data were processed

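Poly-A RNA was sequenced from 9 libraries. The authors deposited raw counts of reads for each gene, and the gene length in bases in another column. The submitters' processing notes name HISAT2 2.0.5 as the aligner. Which tool counted the reads, with which strand setting and on which build, is not given in the sources used here, so reads of overlapping genes on opposite strands cannot be told apart. Positions of all 58735 genes equal those of GENCODE release 29 (GRCh38), which gives the build printed.

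The counts were fitted with edgeR 4.0.16 (with limma 3.58.1, R 4.3.3). Genes were filtered with filterByExpr (18195 kept), TMM factors scaled the libraries, and quasi-likelihood F tests came from 1 fit of all 9 libraries. Adjusted p is Benjamini-Hochberg over all genes tested (threshold 0.05), also for a bare value in parentheses after an adjusted p. CPM, TPM (from the deposited gene lengths), log2 CPM (prior count 2) and promoter matches were computed here. Scripts were tested on simulated data. Pairs of libraries within a group differed by more than sampling noise (chi-square per degree of freedom 1.91 to 2.64).

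The members, lists and tests were chosen with earlier results of these data known. Values per library are given for called members (at most the 10 largest folds per comparison) and for HMGCS1, SQLE, INSIG1, SREBF1, SREBF2, FASN and SCD. Other pathway genes and markers are named if called with a log2 fold of at least 0.5, up to 4 per list and comparison. Markers that make up most of a summed level are named as well. Alternatives were other scalings, DESeq2 1.42.0, other filters, fits of 2 groups, each library left out, CPM per kb and a shorter promoter window. No test was made of the list as a whole. The listed genes of SREBP processing and turnover are counted among the other pathway genes and not reported here on their own.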

Additional observations from a re-analysis of the deposited data

How the results depend on the processing

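Of 93 pairs of member and comparison, 39 were called. Over 17 alternatives each, 24 kept the call in all of them, 15 lost it at least once, 13 others gained it at least once and 0 reversed direction. For p65 WT against vector, library totals alone gave 10 members lower and a median log2 fold of -0.045, and totals without RELA gave 7 and -0.032. For p65 2CS against p65 WT, library totals alone gave a median of -0.079, and totals without RELA gave 8 members lower and a median of -0.054. With each library left out in turn, p65 WT against vector gave 4 to 6 members higher, 1 to 4 lower and medians of -0.016 to 0.0090. For p65 2CS against vector 0 were higher in each case, 10 to 16 were lower, and medians were -0.137 to -0.098. For p65 2CS against p65 WT 1 to 2 were higher, 11 to 15 lower, and medians were -0.128 to -0.085. The lowest counts came without p65 WT replicate 6 (1 lower, p65 WT against vector), p65 2CS replicate 7 (10 lower, against vector), p65 2CS replicate 8 (1 higher, between the forms) and p65 WT replicate 6 (11 lower, between the forms). The kappa-B matches were 9 over the whole promoter window and 5 in the 250 bases before the start. The cause of these shifts was not tested. No paired analysis was possible because the replicate numbers differ between groups (1 to 3, 4 to 6 and 7 to 9). Each group has 3 libraries, which limits the precision of every fold.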
